A study of Rattus norvegicus with 8 samples.

Results

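Rat fracture callus cells that had received CGRP on top of zoledronate were set against callus cells that had received zoledronate alone, both taken 12 weeks after fracture. The members were all cell barcodes with at least 5000 unique molecular identifiers (UMIs, 1 per captured transcript) in the tables of these libraries. They were 10370 of 10670 barcodes in the CGRP library and 9278 of 9802 in the zoledronate library, and the design text states 10000 cells for each group on the 10x Chromium V3 system. Together they made up 19648 of the 65208 barcodes in the series that reached this depth, out of 69624 deposited. Both groups were Sprague Dawley rats given zoledronate under the skin at 0.3 mg/kg each week for 12 weeks before a closed fracture of 1 femur, so the comparison is of CGRP added to zoledronate and not of CGRP alone. The labels name a stainless steel and a magnesium-containing intramedullary nail without saying which group had which. They give no dose, route or timing of CGRP, and no sex, age or number of rats behind a library. Cells were freed from the callus by 4 h in collagenase A and held in a dish for 24 h before loading, so what was measured is cells after culture. The other treatments of the series were zoledronate with magnesium, called the magnesium library below, and an untreated control.

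Calcitonin gene-related peptide (CGRP) is a neuropeptide released by sensory nerve endings, which are dense in the periosteum. It acts through the receptor Calcrl paired with the accessory protein Ramp1, and the receptor raises cyclic AMP in the cell. Zoledronate is a nitrogen-containing bisphosphonate that binds to bone mineral and blocks farnesyl diphosphate synthase in the mevalonate pathway, mostly in osteoclasts, which resorb bone.

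Each treatment and week was 1 library, so no test between libraries was possible and no p-value is given. Higher and lower refer to these libraries. Levels are CPM, the share of a gene in all UMIs of a library's cells multiplied by 1000000. Log2 ratios and list medians are of CPM + 1, CGRP over zoledronate. A ratio printed with an interval is the plain ratio of the CPM levels, CGRP over zoledronate, and not a log2 ratio. Intervals are exact 95% intervals, Poisson for levels and Clopper-Pearson for shares of cells. Those of plain ratios come from the exact binomial interval of the CGRP share of a gene's UMIs in both libraries. All intervals measure counting error alone, and rats, dishes and libraries add a spread that they do not contain. Among genes of at least 5 CPM the intervals of levels reached at most 7.49% above a level, and among genes of at least 50 CPM at most 2.31%. Shares of cells were taken after thinning each cell to 5000 UMIs, because depth differed: the median cell had 12742 UMIs and 2739 genes in the CGRP library, and 16083 UMIs and 3105 genes in the zoledronate library. The CGRP cells held 147124758 UMIs in all and the zoledronate cells 155953161. Ribosomal protein genes took 26.9% of the UMIs of CGRP cells and 23.5% of those of zoledronate cells. The pair of libraries had 26 cell barcodes in common, and either of them had 11 to 25 in common with any other library of the series.

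The cells of both libraries carried fibroblastic markers. All 10 of the fibroblastic markers were at 5 CPM or more in each library, with Col1a1, a chain of type I collagen, at 18514 CPM in CGRP cells and 22060.0 CPM in zoledronate cells. The defining markers of blood, vessel and mature bone cells were near 0 or not listed. Csf1r, the receptor of macrophages, was at 0.326 CPM in CGRP cells and 0.218 CPM in zoledronate cells, and Ptprc, carried by blood cells, was at 0.0680 CPM in CGRP cells and 0.0577 CPM in zoledronate cells. The 10 macrophage markers summed to 21.8 CPM in CGRP cells and 22.04 CPM in zoledronate cells, with 2 at 5 CPM or more and 3 not listed in each library. The osteoclast markers summed to 153.5 CPM in CGRP cells and 146.6 CPM in zoledronate cells, most of it Ctsk (cathepsin K), at 135 CPM in CGRP cells and 124 CPM in zoledronate cells. Endothelial markers summed to 49.7 CPM in CGRP cells and 38.6 CPM in zoledronate cells, most of it Egfl7, while Pecam1 was at 0.367 CPM in CGRP cells and was not listed for zoledronate. Chondrocyte markers summed to 106 CPM in CGRP cells and 129 CPM in zoledronate cells, with Col2a1, the collagen that defines cartilage, listed in neither. Mature bone cell markers summed to 9.60 CPM in CGRP cells and 17.5 CPM in zoledronate cells, most of it Alpl. Smooth muscle and pericyte markers were lower in the CGRP library, at 2727 CPM in CGRP cells and 4771 CPM in zoledronate cells, and their main component was the smooth muscle actin Acta2. Schwann and neural markers summed to 145 CPM in the CGRP library and 109 CPM in the zoledronate library. Of these, S100b, a calcium-binding protein also found in cartilage and fat, was at 53.8 CPM in CGRP cells and 9.85 CPM in zoledronate cells, while Sox10, which defines Schwann cells, was listed in neither. Lymphocyte, granulocyte, skeletal muscle, erythroid and adipocyte markers had 0 of 10 at 5 CPM or more in either library.

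Of 7110 genes with a mean of at least 5 CPM, 400 were at least 1.5-fold higher in the CGRP library (5.63%) and 365 at least 1.5-fold lower (5.13%). Each count of list members given below is to be read beside these shares. At least 2-fold, 166 were higher (2.33%) and 121 lower (1.7%). The median log2 ratio was 0.0051 and the standard deviation across genes 0.44. Among the 2339 genes with a mean of at least 50 CPM, 91 were higher (3.89%) and 130 lower (5.56%), so that the side with more genes depended on the level of the genes counted. It also depended on the scaling: with TMM factors 377 were higher and 402 lower, and with DESeq2 size factors 378 were higher and 399 lower.

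The 12 well-expressed genes furthest above zoledronate were a mixed group of secreted, membrane and metal-binding proteins. Wfdc18, a small secreted protein with a WAP domain, was at 211 CPM in CGRP cells and 11.1 CPM in zoledronate cells, a ratio of 19.004 (18.1 to 19.96). In the magnesium library it was at 2.84 CPM and in the control library at 6.66 CPM, so the CGRP library was the highest of the 4 by a wide margin. Wfdc18 transcripts were found in 24.8% of CGRP cells (23.99 to 25.7) and 3.05% of zoledronate cells (2.71 to 3.42). Within the CGRP library the tenth of cells with most Wfdc18 held 83.8% of its UMIs, and 9.9% of cells had 3 or more. CGRP cells with Wfdc18 held Igf1 in 70.1% (68.3 to 71.9) and Lum in 55.6% (53.7 to 57.5), against 48.5% (47.4 to 49.6) and 30.3% (29.3 to 31.3) of CGRP cells without it. Rarres1 went the other way, in 27.5% (25.8 to 29.3) of CGRP cells with Wfdc18 and 41.9% (40.8 to 43) of those without.

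Ifitm3, an interferon-induced membrane protein that hinders virus entry, was found in most CGRP cells. Its level was 652 CPM in CGRP cells and 124 CPM in zoledronate cells, a ratio of 5.25 (5.17 to 5.33), and it was found in 87.6% of CGRP cells (86.97 to 88.2) and 41.2% of zoledronate cells (40.2 to 42.2). Col14a1, a collagen that sits on the surface of collagen fibrils, was at 198 CPM in CGRP cells and 36.1 CPM in zoledronate cells and was found in 52.9% of CGRP cells (51.9 to 53.8) and 14.6% of zoledronate cells (13.9 to 15.4). Cilp, a matrix protein first known from cartilage, was at 109 CPM in CGRP cells and 19.2 CPM in zoledronate cells, a ratio of 5.67 (5.45 to 5.90). Il33, an alarm cytokine stored in the nucleus, was at 111 CPM in CGRP cells and 20.4 CPM in zoledronate cells, a ratio of 5.46 (5.25 to 5.67). Rarres1, a membrane protein induced by retinoic acid, was at 143 CPM in CGRP cells and 30.1 CPM in zoledronate cells. G0s2, an inhibitor of the lipase that breaks down stored fat, was at 187 CPM in CGRP cells and 42.6 CPM in zoledronate cells, a ratio of 4.38 (4.26 to 4.50). In the magnesium library these 6 genes were all above their zoledronate level, from 82.7 CPM for Il33 to 572 CPM for G0s2. The control library had 22.04 CPM of Cilp, 12.2 CPM of Il33, 21.2 CPM of Rarres1 and 4.05 CPM of G0s2, levels far below those of CGRP cells. Control levels of Ifitm3 and Col14a1 are not reported here.

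The remaining higher genes in this set were Lpar1, a receptor of lysophosphatidic acid, at 131 CPM in CGRP cells and 39.3 CPM in zoledronate cells, together with Csf1, Ramp3, Mt1 and Mt2A, which are described with their pathways. Gsta1, a glutathione transferase, had one of the 5 largest gains in cells and was found in 47.3% of CGRP cells (46.3 to 48.2) and 16.99% of zoledronate cells (16.2 to 17.8). Reads of glutathione transferase and metallothionein genes may be split among close copies, so their single levels are uncertain.

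**Figure D1:**
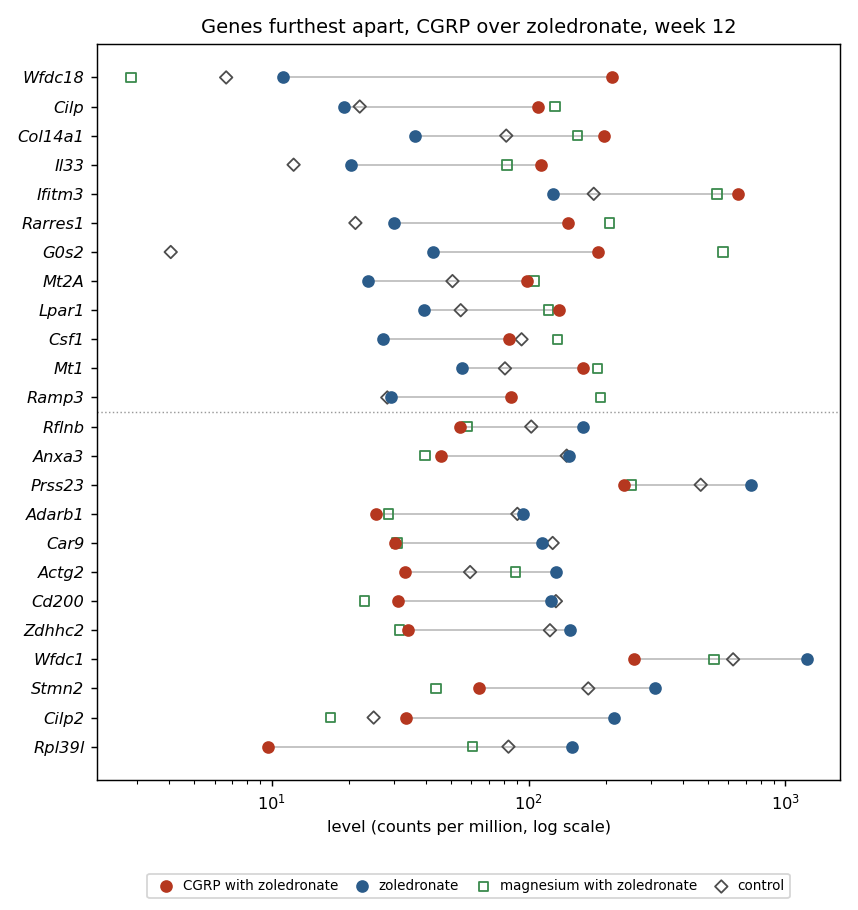
Levels in CPM on a log scale, 1 point per week 12 library, of the 12 genes furthest above (top) and the 12 furthest below (bottom) zoledronate in the CGRP library, among genes with a mean of at least 50 CPM. Counting intervals are narrower than the points for most genes, and Wfdc18 is the gene for which the CGRP library, at 211 CPM, lies furthest from all the others.

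Genes lower in the CGRP library included a WAP-domain gene, a second Cilp gene and several contractile or surface proteins. Wfdc1, a secreted WAP-domain protein of stroma, was at 256 CPM in CGRP cells and 1209 CPM in zoledronate cells, a ratio of 0.212 (0.210 to 0.214), and it was found in 45.6% of CGRP cells (44.7 to 46.6) and 93.5% of zoledronate cells (92.9 to 93.96). Cilp2, the paralog of Cilp, was at 33.2 CPM in CGRP cells and 215 CPM in zoledronate cells, a ratio of 0.154 (0.150 to 0.159), so the pair of paralogs lay on opposite sides. The control library had 24.97 CPM of Cilp2 and the magnesium library 16.9 CPM, so here the zoledronate library was the highest by a wide margin.

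Stmn2, a microtubule-destabilising protein best known from neurons, was at 64.2 CPM in CGRP cells and 311 CPM in zoledronate cells, a ratio of 0.206 (0.202 to 0.211). Prss23, a secreted serine protease, was at 236 CPM in CGRP cells and 731 CPM in zoledronate cells, and the LIM-domain protein Fhl1 was at 113 CPM in CGRP cells and 322 CPM in zoledronate cells. The share of cells with Prss23 was 52.3% in the CGRP library and 87.9% in the zoledronate library. Car9, a carbonic anhydrase that hypoxia induces, was at 30.3 CPM in CGRP cells and 113 CPM in zoledronate cells. Cd200, a surface ligand that restrains myeloid cells, was at 30.9 CPM in CGRP cells and 122 CPM in zoledronate cells. For Car9 and Cd200 the control library, at 124 and 128 CPM, was near zoledronate, and the magnesium library, at 30.8 and 22.995 CPM, was near CGRP. The other lower genes were the palmitoyltransferase Zdhhc2 (33.9 against 145 CPM, CGRP against zoledronate), the RNA-editing deaminase Adarb1 (25.5 against 95.6 CPM), the annexin Anxa3 (45.8 against 144 CPM), the filamin-binding Rflnb (54.02 against 163 CPM), smooth muscle gamma actin Actg2 (33.2 against 128 CPM) and Rpl39l (9.72 against 148 CPM). Rpl39l is a near-identical copy of the ribosomal protein gene Rpl39, so its level is uncertain.

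Across all genes measured in the 4 week 12 libraries, zoledronate was the lowest library for 327 of the 399 genes at least 1.5-fold higher in CGRP (82%, against 38% of all genes). CGRP was the highest for 102 of them (25.6%, against 8.91% of all genes). Of the 365 lower genes, zoledronate was the highest library for 285 (78.1%, against 22.2%) and CGRP the lowest for 202 (55.3%, against 25.8%). Since the genes were chosen by these 2 libraries, the shares describe them and are not a comparison with the other treatments.

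Genes of the CGRP signal itself were scarce. The receptor gene Calcrl was at 0.496 CPM in CGRP cells and 0.141 CPM in zoledronate cells, and was found in 0.251% of CGRP cells and 0.0862% of zoledronate cells. Ramp1 was at 0.0680 CPM in the CGRP library and was not listed in the zoledronate table, and Calca, which encodes the peptide, was listed in neither. Ramp3, which with Calcrl makes a receptor of adrenomedullin, was at 85.8 CPM in CGRP cells and 29.1 CPM in zoledronate cells, a ratio of 2.95 (2.85 to 3.05), and was found in 28.2% of CGRP cells (27.4 to 29.1) and 12.8% of zoledronate cells (12.2 to 13.5). Its magnesium level was 191 CPM and its control level 28.2 CPM. Ramp2, the other adrenomedullin partner, was at 61.5 CPM in CGRP cells and 55.9 CPM in zoledronate cells, and Crcp, a receptor component protein, was at 17.3 CPM in CGRP cells and 14.4 CPM in zoledronate cells. Adrenomedullin 2 (Adm2) was at 10.7 CPM in CGRP cells and 15.02 CPM in zoledronate cells. Adrenomedullin itself (Adm), with a mean below 5 CPM, had a log2 ratio of 1.35, and of 0.68 to 1.76 with other pseudocounts. Ramp3 was the only one of the 4 measured genes of this list past 1.5-fold.

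Of 10 measured genes that cyclic AMP is known to induce or that degrade it, 4 were at least 1.5-fold higher and 0 lower. Their median log2 ratio was 0.46, and 5.63% of all genes were at least 1.5-fold higher. Fosb, a partner in the AP-1 transcription factor, was at 61.5 CPM in CGRP cells and 21.5 CPM in zoledronate cells. Its relative Fos was at 96.1 CPM in CGRP cells and 45.4 CPM in zoledronate cells, and the stress factor Atf3 at 16.4 CPM in CGRP cells and 7.25 CPM in zoledronate cells. Pde4b, a phosphodiesterase that breaks down cyclic AMP, was at 12.2 CPM in CGRP cells and 4.45 CPM in zoledronate cells. Nr4a1, an orphan nuclear receptor that CREB induces, was at 39.99 CPM in CGRP cells and 26.99 CPM in zoledronate cells, and Dusp1, a phosphatase of MAP kinases, at 398 CPM in CGRP cells and 521 CPM in zoledronate cells. These genes also answer to serum, stress and dissociation. The wider list of 18 immediate early genes had 5 higher and 1 lower, with a median of 0.21. That median was -0.044 among members with a mean of at least 50 CPM. The list summed to 1915.1 CPM in CGRP cells and 1978.5 CPM in zoledronate cells. Fosl1, another AP-1 member, was at 16.2 CPM in CGRP cells and 5.40 CPM in zoledronate cells. The lower one was Zfp36, which destabilises cytokine transcripts, at 17.9 CPM in CGRP cells and 34.97 CPM in zoledronate cells.

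Genes by which stroma acts on osteoclasts and immune cells were more often higher than lower in the CGRP library. Of 6 measured regulators of osteoclasts, 4 were at least 1.5-fold higher and 1 lower, with a median of 0.82. Over all genes, 5.63% were that much higher and 5.13% lower. Csf1, the growth factor of osteoclast precursors and macrophages, was at 84.2 CPM in CGRP cells and 27.2 CPM in zoledronate cells, a ratio of 3.10 (2.99 to 3.21), and was found in 28.5% of CGRP cells (27.6 to 29.4) and 11.7% of zoledronate cells (11.1 to 12.4). The control library had 93.96 CPM of Csf1 and the magnesium library 129 CPM, so zoledronate was the lowest of the 4. Cxcl12, the chemokine that holds blood progenitors in the marrow, was at 85.1 CPM in CGRP cells and 44.7 CPM in zoledronate cells. Lgr4, a receptor of R-spondins that also binds RANKL, was at 10.4 CPM in CGRP cells and 4.97 CPM in zoledronate cells. Wnt5a, which promotes osteoclast formation, was at 30.8 CPM in CGRP cells and 18.3 CPM in zoledronate cells, and osteoprotegerin (Tnfrsf11b), the decoy that blocks RANKL, was at 69.2 CPM in CGRP cells and 48.2 CPM in zoledronate cells. The interleukin Il11, which favours resorption, was lower, at 2.95 CPM in CGRP cells and 8.002 CPM in zoledronate cells.

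Of 10 chemokines and cytokines, 5 were higher (50%, against 5.63% of all genes) and 1 lower (10%, against 5.13%), with a median of 0.61. Csf1, Cxcl12 and Il11 are in both lists. Cxcl14, a chemokine of fibroblasts and epithelia, was at 11.7 CPM in CGRP cells and 0.365 CPM in zoledronate cells. Ccl7, which attracts monocytes, was at 229.7 CPM in CGRP cells and 135 CPM in zoledronate cells, and its neighbour in function Ccl2 at 215 CPM in CGRP cells and 211 CPM in zoledronate cells. Ccl2 was found in 25.8% of CGRP cells (24.98 to 26.7) and 16.7% of zoledronate cells (15.9 to 17.5), so its cells were more frequent at a similar total. Both chemokines were higher still in the magnesium library, at 688 CPM for Ccl7 and 829.8 CPM for Ccl2.

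Among the lists, mitosis genes had the largest share of members at least 1.5-fold higher. Of 20 mitosis genes measured, 19 were at least 1.5-fold higher in the CGRP library and 0 lower, with a median log2 ratio of 1.33, whereas 5.63% of all genes were that much higher. Mki67, the usual marker of proliferating cells, was at 46.2 CPM in CGRP cells and 15.5 CPM in zoledronate cells. Cyclin B1 (Ccnb1), which starts mitosis with Cdk1, was at 39.2 CPM in CGRP cells and 12.4 CPM in zoledronate cells. Top2a, which untangles chromosomes, was at 23.2 CPM in CGRP cells and 7.38 CPM in zoledronate cells, and the spindle assembly factor Tpx2 at 33.96 CPM in CGRP cells and 11.2 CPM in zoledronate cells. The exception was Cdk1 itself, at 18.2 CPM in CGRP cells and 14.1 CPM in zoledronate cells. Control cells had more of each of these 5 genes than CGRP or zoledronate cells, with 96.5 CPM of Mki67 and 87.8 CPM of Ccnb1, and magnesium cells had 43.3 and 35.3 CPM.

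The libraries differed in how many cells held mitosis transcripts. Cells with at least 5 mitosis UMIs of 5000 made up 12.99% of CGRP cells (12.4 to 13.7) and 4.80% of zoledronate cells (4.37 to 5.25). Among these cells the mean number of mitosis UMIs was 17.9 in the CGRP library and 17.2 in the zoledronate library. When cells with at least 5 mitosis or S phase UMIs were left out, 19.5% of CGRP cells and 8.33% of zoledronate cells, the list's median was 0.44. That comparison was chosen after the data were seen. It left out cells by UMIs of the list's own genes, more of them in the CGRP library, so a smaller median follows from the choice. The planned filter, which left out cells above 1% mitosis and S phase UMIs, removed only 30 CGRP and 20 zoledronate cells.

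S phase genes were mostly higher too, with a smaller median. Of 16 measured, 6 were at least 1.5-fold higher (37.5%, against 5.63% of all genes) and 0 lower, with a median of 0.50. Rrm2 and Rrm1, the subunits of the reductase that makes deoxynucleotides, were at 78.6 CPM in CGRP cells and 33.7 CPM in zoledronate cells for Rrm2 and at 42.4 CPM in CGRP cells and 22.8 CPM in zoledronate cells for Rrm1. The helicase subunits Mcm3 and Mcm6 were at 15.9 CPM in CGRP cells and 7.70 CPM in zoledronate cells for Mcm3 and at 29.6 CPM in CGRP cells and 15.7 CPM in zoledronate cells for Mcm6. Mcm4 and the chromatin remodeller Hells completed the 6. Under 1.5-fold, Pcna, the sliding clamp of DNA polymerase, was at 60.9 CPM in CGRP cells and 54.9 CPM in zoledronate cells, and the helicase subunit Mcm2 at 14.2 CPM in CGRP cells and 10.1 CPM in zoledronate cells. Cells with at least 5 S phase UMIs of 5000 made up 14.2% of CGRP cells (13.5 to 14.9) and 6.46% of zoledronate cells (5.96 to 6.98). Among 18 genes of G1 phase, cell cycle brakes and p53 targets, 3 were higher and 0 lower. Cyclin D1 (Ccnd1), which drives cells from G1 phase, was at 95.9 CPM in CGRP cells and 39.7 CPM in zoledronate cells and cyclin E1 (Ccne1), its successor, at 17.9 CPM in CGRP cells and 10.2 CPM in zoledronate cells. The brake Cdkn1a (p21) was at 69.7 CPM in CGRP cells and 51.03 CPM in zoledronate cells, and Mdm2, the brake on p53, at 43.3 CPM in CGRP cells and 64.3 CPM in zoledronate cells.

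Promoters of mitosis genes are known to carry CCAAT boxes, bound by NF-Y, and a cell cycle homology region (CHR), which recruits the DREAM and MuvB complexes. The letters TTTGAA or TTCGAA were searched for CHR and CCAAT for the CCAAT box, on both strands, in the 300 bases from 250 before to 50 after each gene start (RefSeq, GRCr8). Of the 20 measured mitosis genes 17 were in the promoter table, 13 of them with CHR letters, 14 with CCAAT and 12 with both. Of all 27457 promoters, 19.5% had CHR letters, 37.7% CCAAT and 7.83% both. The letters did not mark off the mitosis genes past 1.5-fold. Cdk1, which was under it, held 2 CHR and 3 CCAAT, and Aurka and Bub1, which were past it, held 0 of each. The promoters of 3 mitosis genes that were higher in the CGRP library are printed to show how the letters sit together, with CHR and CCAAT letters in capitals. They are Ccnb2 (a B-type cyclin) at chr8:79981609-79981908 (- strand), Cdc20 (the activator of the anaphase complex) at chr5:137255750-137256049 (- strand) and Prc1 (a crosslinker of spindle microtubules) at chr1:143659231-143659530 (+ strand).
Ccnb2: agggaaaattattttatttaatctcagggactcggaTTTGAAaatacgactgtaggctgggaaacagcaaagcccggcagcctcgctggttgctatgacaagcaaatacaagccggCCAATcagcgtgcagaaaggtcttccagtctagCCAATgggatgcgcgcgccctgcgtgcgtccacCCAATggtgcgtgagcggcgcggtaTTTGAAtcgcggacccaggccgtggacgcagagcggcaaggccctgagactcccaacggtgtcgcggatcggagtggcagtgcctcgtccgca
Cdc20: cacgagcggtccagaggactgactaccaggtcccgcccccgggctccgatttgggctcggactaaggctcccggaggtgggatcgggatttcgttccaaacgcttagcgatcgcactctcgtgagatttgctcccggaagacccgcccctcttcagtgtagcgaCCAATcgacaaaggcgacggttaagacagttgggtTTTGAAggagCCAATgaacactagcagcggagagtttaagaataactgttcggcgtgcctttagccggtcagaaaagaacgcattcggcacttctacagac
Prc1: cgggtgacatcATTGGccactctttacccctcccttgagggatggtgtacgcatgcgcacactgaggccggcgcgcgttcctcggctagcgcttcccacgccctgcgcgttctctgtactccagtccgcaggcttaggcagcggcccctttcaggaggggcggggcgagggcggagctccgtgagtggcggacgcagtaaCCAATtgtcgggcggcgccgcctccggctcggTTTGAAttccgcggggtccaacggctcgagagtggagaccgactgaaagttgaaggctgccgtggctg
No printed CHR and CCAAT letters overlapped. Ccnb2 was at 23.04 CPM in CGRP cells and 8.39 CPM in zoledronate cells, Cdc20 at 36.3 CPM in CGRP cells and 12.9 CPM in zoledronate cells and Prc1 at 48.6 CPM in CGRP cells and 18.8 CPM in zoledronate cells. A match of letters describes the sequence and does not show that a factor bound there.

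**Figure D2:**
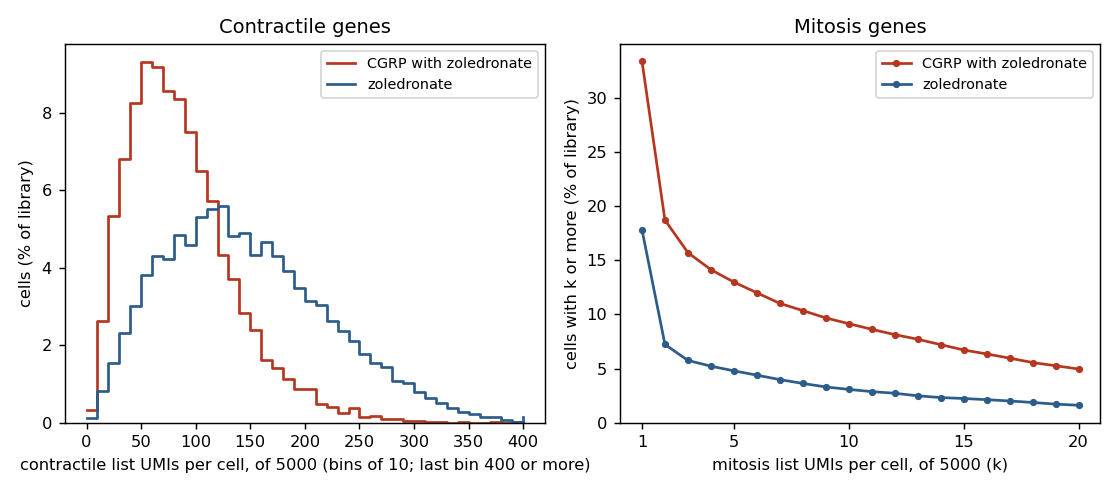
Left, the percent of cells (y axis) by number of contractile list UMIs per cell after thinning to 5000 (x axis, bins of 10); right, the percent of cells with k or more mitosis list UMIs. CGRP cells (red) had a contractile median of 79 UMIs and zoledronate cells (blue) one of 138, while cells with 5 or more mitosis UMIs were 12.99% of CGRP cells and 4.80% of zoledronate cells.

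Genes of the mevalonate and sterol pathway, in which zoledronate acts, were nearly all slightly higher in the CGRP library. Of 21 measured, 20 were higher in the CGRP library at any size, 5 of them at least 1.5-fold, and 0 were 1.5-fold lower. The median log2 ratio was 0.45, and 50.9% of all genes were higher at any size. Fdps, the enzyme that zoledronate blocks, was at 365 CPM in CGRP cells and 276 CPM in zoledronate cells. Mvd, which makes isopentenyl diphosphate, was at 21.995 CPM in CGRP cells and 13.5 CPM in zoledronate cells. Further down the pathway Cyp51 was at 138 CPM in CGRP cells and 87.3 CPM in zoledronate cells and Tm7sf2, a sterol reductase, at 15.6 CPM in CGRP cells and 8.16 CPM in zoledronate cells. Insig1, the sterol sensor that holds back the pathway, was at 8.42 CPM in CGRP cells and 4.83 CPM in zoledronate cells, and the sterol ketoreductase Hsd17b7 at 7.32 CPM in CGRP cells and 4.26 CPM in zoledronate cells. Cells with at least 5 UMIs of this list among 5000 made up 54.5% of CGRP cells (53.5 to 55.4) and 38.7% of zoledronate cells (37.7 to 39.7). In the control library Fdps was at 368 CPM and Cyp51 at 153 CPM.

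Enzymes that attach prenyl groups, and the small GTPases that receive them, had 0 of 13 at least 1.5-fold higher and 2 lower, with a median of 0.13. The lower ones were Rhob, at 110.1 CPM in CGRP cells and 168 CPM in zoledronate cells, and the farnesyltransferase subunit Fntb, at 3.92 CPM in CGRP cells and 7.19 CPM in zoledronate cells. Rac1, a GTPase of the leading edge, was at 128 CPM in CGRP cells and 102 CPM in zoledronate cells.

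**Figure D3:**
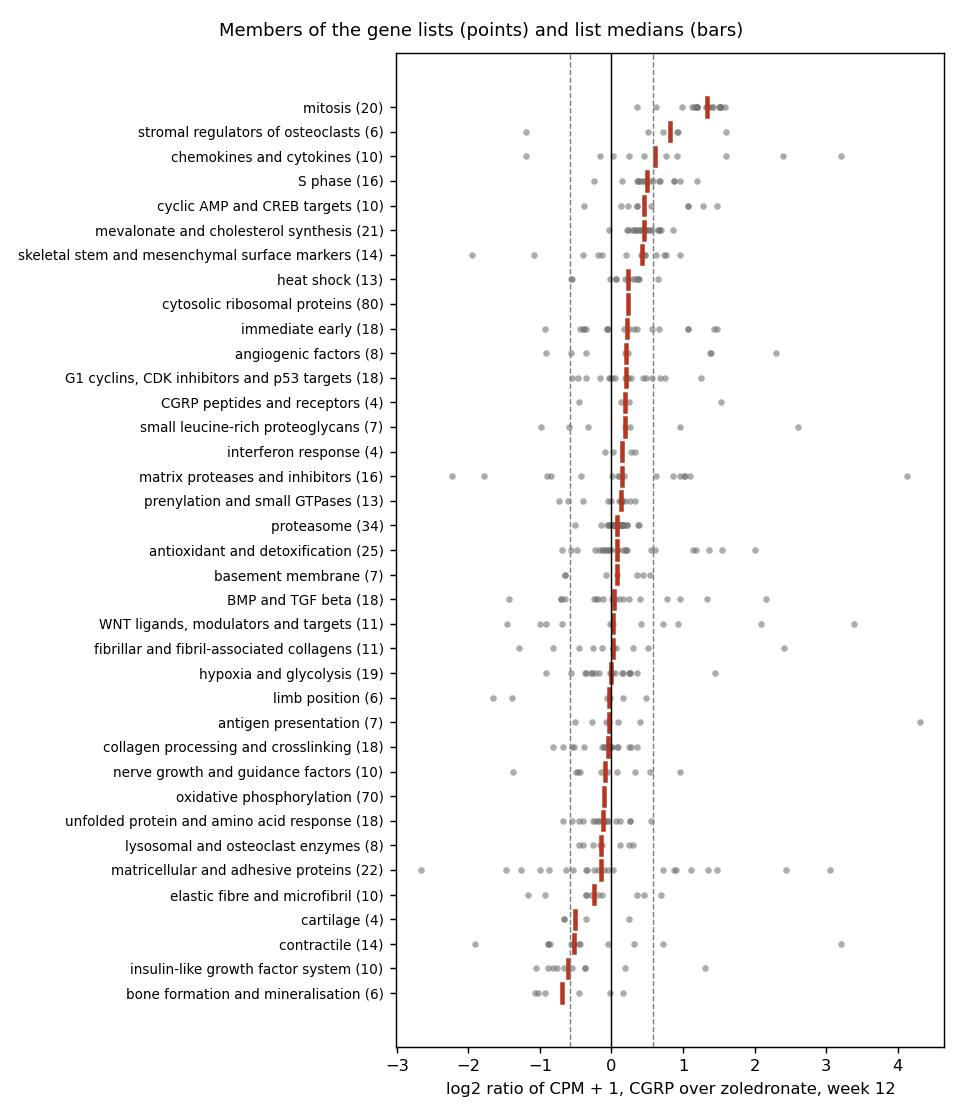
Log2 ratio of CPM + 1, CGRP over zoledronate at week 12 (x axis), of members with a mean of at least 5 CPM (points), by gene list (y axis). The number of such members stands in brackets, the list's median is a bar and dashed lines mark 1.5-fold. Points are drawn for every list but cytosolic ribosomal proteins and oxidative phosphorylation, which show the bar alone. Mitosis stands at the top with a median of 1.33 and bone formation at the bottom with -0.69, and several lists with a median near 0 hold members far out on both sides.

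Matrix genes lay on both sides, without a common direction. The list of fibrillar and fibril-associated collagens also held collagens of other kinds, Col8a1 and Col6a2 among them. Of its 11 measured genes, 1 (Col14a1) was at least 1.5-fold higher and 2 (Col11a1 and Col8a1) lower. Their median, 0.015, changed side under some scalings. Col1a2, the partner chain of Col1a1, was at 10786 CPM in CGRP cells and 10622 CPM in zoledronate cells, and Col3a1, the collagen of early repair tissue, at 7674 CPM in CGRP cells and 8416 CPM in zoledronate cells. Col11a1, a minor chain of cartilage and early bone fibrils, was at 786 CPM in CGRP cells and 1920.3 CPM in zoledronate cells, and Col8a1, a short-chain collagen of vessels, at 177 CPM in CGRP cells and 313 CPM in zoledronate cells. Col6a2, a chain of beaded microfibrils, was at 315 CPM in CGRP cells and 220.3 CPM in zoledronate cells.

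Enzymes that process and crosslink collagen had 0 of 18 higher and 2 lower (11.1%, against 5.13% of all genes). These were the lysyl hydroxylase Plod2, at 387 CPM in CGRP cells and 683 CPM in zoledronate cells, and the lysyl oxidase relative Loxl2, at 81.98 CPM in CGRP cells and 132 CPM in zoledronate cells. P3h3 and Crtap, which take part in collagen prolyl hydroxylation, were at 26.5 against 39.2 CPM and 5.91 against 8.95 CPM, CGRP against zoledronate.

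Small leucine-rich proteoglycans, which coat collagen fibrils, lay on both sides, with 2 of 7 higher and 2 lower. Asporin (Aspn) was at 50.6 CPM in CGRP cells and 7.46 CPM in zoledronate cells, and prolargin (Prelp) at 29.7 CPM in CGRP cells and 14.8 CPM in zoledronate cells. Decorin (Dcn) was at 178 CPM in CGRP cells and 355 CPM in zoledronate cells, and osteoglycin (Ogn) at 254 CPM in CGRP cells and 385 CPM in zoledronate cells. Decorin was found in 39.7% of CGRP cells (38.7 to 40.6) and 65.2% of zoledronate cells (64.2 to 66.2). Its levels in the control library (2.28 CPM) and the magnesium library (47.2 CPM) were below both. Lumican (Lum) was at 167 CPM in CGRP cells and 139 CPM in zoledronate cells, against 6.09 CPM in control cells.

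Matricellular and adhesive proteins were divided, with 8 of 22 at least 1.5-fold higher, 6 lower and a median of -0.15. Tgfbi, an adhesive protein that TGF beta induces, was at 81.7 CPM in CGRP cells and 8.98 CPM in zoledronate cells. The hyaluronan synthase Has2 was at 52.5 CPM in CGRP cells and 18.2 CPM in zoledronate cells, and its partner in the pericellular coat, versican (Vcan), at 207 CPM in CGRP cells and 112 CPM in zoledronate cells. Thrombospondin 2 (Thbs2), which restrains vessel growth, was at 1425 CPM in CGRP cells and 760.0 CPM in zoledronate cells, and tenascin N (Tnn), made in periosteum, at 678 CPM in CGRP cells and 312 CPM in zoledronate cells. On the other side, Ctgf, a target of TGF beta and YAP, was at 3448 CPM in CGRP cells and 6924 CPM in zoledronate cells, and its relative Cyr61 at 316 CPM in CGRP cells and 582 CPM in zoledronate cells. Hemicentin 1 (Hmcn1) was at 28.3 CPM in CGRP cells and 80.3 CPM in zoledronate cells. Periostin (Postn) was at 532 CPM in CGRP cells and 629 CPM in zoledronate cells, and fibronectin (Fn1) at 5645 CPM in CGRP cells and 6455 CPM in zoledronate cells.

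In basement membranes, 0 of 7 genes were at least 1.5-fold higher and 2 lower, namely Col4a1 at 227 CPM in CGRP cells and 356 CPM in zoledronate cells and Col15a1 at 44.4 CPM in CGRP cells and 70.1 CPM in zoledronate cells. Laminin alpha 4 (Lama4) was at 108 CPM in CGRP cells and 74.5 CPM in zoledronate cells and Col18a1 at 9.64 CPM in CGRP cells and 6.87 CPM in zoledronate cells. Elastic fibre genes had 1 of 10 higher and 2 lower. Fibulin 5 (Fbln5), which assembles elastin, was at 69.7 CPM in CGRP cells and 134 CPM in zoledronate cells, and Ltbp4, its partner, at 7.69 CPM in CGRP cells and 18.5 CPM in zoledronate cells. The higher one was Emilin1, at 46.2 CPM in CGRP cells and 28.3 CPM in zoledronate cells, and Efemp2 was at 325 CPM in CGRP cells and 237 CPM in zoledronate cells.

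Few cartilage and bone genes were measured, and those past 1.5-fold were lower in the CGRP library. Of 21 cartilage genes 4 were measured, with 0 higher and 2 lower: Comp, a matrix protein that joins collagens, at 12.4 CPM in CGRP cells and 20.2 CPM in zoledronate cells, and the link protein Hapln1 at 3.72 CPM in CGRP cells and 6.48 CPM in zoledronate cells. Sox9, a master factor of cartilage formation, was at 82.7 CPM in CGRP cells and 106 CPM in zoledronate cells, and aggrecan (Acan) at 18.2 CPM in CGRP cells and 15.2 CPM in zoledronate cells. The cartilage median of -0.51 was 0.070 with no minimum level. Comp and Hapln1 were under 1.5-fold with a pseudocount of 5 CPM, at log2 ratios of -0.53 for Comp and -0.40 for Hapln1. Comp was also under it after thinning, at -0.56, and without cells with 5 or more mitosis and S phase UMIs, at -0.51. Of 19 bone genes 6 were measured, with 0 higher, 3 lower and a median of -0.69. Alpl, the phosphatase that frees phosphate for mineral, was at 8.14 CPM in CGRP cells and 16.4 CPM in zoledronate cells. Enpp1, which makes the mineral inhibitor pyrophosphate, was at 61.5 CPM in CGRP cells and 130.2 CPM in zoledronate cells, and Ankh, which exports it, at 7.25 CPM in CGRP cells and 15.9 CPM in zoledronate cells. Matrix Gla protein (Mgp), another inhibitor of mineral, was at 391 CPM in CGRP cells and 536 CPM in zoledronate cells. With every listed gene counted, whatever its level, the bone median was -0.032, so it rests on the 6 measured genes.

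Proteases and their inhibitors were divided, with 7 of 16 higher, Wfdc18 among them, and 4 lower, Wfdc1 among them. Gelatinase A (Mmp2) was at 503 CPM in CGRP cells and 247 CPM in zoledronate cells, and its activator Mmp14 at 91.8 CPM in CGRP cells and 59.1 CPM in zoledronate cells. The serpin Serpine2, which blocks thrombin and plasminogen activators, was at 123 CPM in CGRP cells and 56.8 CPM in zoledronate cells. Timp3, the matrix-bound inhibitor of metalloproteases, was at 12.6 CPM in CGRP cells and 45.8 CPM in zoledronate cells, while Timp1 was at 1069 CPM in CGRP cells and 946 CPM in zoledronate cells. Lysosomal and osteoclast enzymes had 0 of 8 past 1.5-fold higher and 0 lower. Among them Ctsd was at 88.7 CPM in CGRP cells and 121 CPM in zoledronate cells, Acp5 (tartrate-resistant phosphatase) at 12.6 CPM in CGRP cells and 16.9 CPM in zoledronate cells, Ctsh at 294 CPM in CGRP cells and 239 CPM in zoledronate cells and Lgmn at 74.6 CPM in CGRP cells and 89.8 CPM in zoledronate cells.

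In the insulin-like growth factor system the ligand was higher and 5 other members, 2 binding proteins among them, were lower. Igf1 was at 353 CPM in CGRP cells and 142 CPM in zoledronate cells and was found in 53.9% of CGRP cells (52.9 to 54.8) and 33.3% of zoledronate cells (32.3 to 34.2). Igfbp3, the main carrier, was at 426 CPM in CGRP cells and 721 CPM in zoledronate cells, and Igfbp4, which holds Igf1 back, at 31.01 CPM in CGRP cells and 58.1 CPM in zoledronate cells. The receptor substrate Irs2 was at 10.1 CPM in CGRP cells and 18.5 CPM in zoledronate cells, and Stc2, an inhibitor of the protease that cleaves Igfbp4, at 3.07 CPM in CGRP cells and 7.46 CPM in zoledronate cells. In all 1 of 10 measured genes was at least 1.5-fold higher and 5 lower, with a median of -0.61.

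WNT genes were evenly divided, 4 of 11 higher and 4 lower, and the side of their median (0.02) changed with the scaling. Among WNT genes with a mean of at least 50 CPM the median was -0.92. The secreted antagonist Sfrp1 was at 26.7 CPM in CGRP cells and 1.64 CPM in zoledronate cells, and the ligand Wnt4 at 14.02 CPM in CGRP cells and 2.54 CPM in zoledronate cells. The ligand Wnt9a was at 6.77 CPM in CGRP cells and 20.5 CPM in zoledronate cells and the secreted modulator Dkk3 at 92.5 CPM in CGRP cells and 187 CPM in zoledronate cells. BMP and TGF beta genes had 4 of 18 higher and 4 lower, and their median was 0.031. It was -0.088 among genes with a mean of at least 50 CPM and -0.083 with no minimum level. The higher ones included 3 secreted antagonists of BMPs or activins. Follistatin (Fst) was at 31.02 CPM in CGRP cells and 6.14 CPM in zoledronate cells, noggin (Nog) at 15.7 CPM in CGRP cells and 5.62 CPM in zoledronate cells and gremlin 1 (Grem1) at 412 CPM in CGRP cells and 211 CPM in zoledronate cells. The 3 TGF beta ligands were lower, with Tgfb2 at 83.3 CPM in CGRP cells and 226 CPM in zoledronate cells, Tgfb3 at 226 CPM in CGRP cells and 369 CPM in zoledronate cells and Tgfb1 at 62.1 CPM in CGRP cells and 102 CPM in zoledronate cells.

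Angiogenic factors had 3 of 8 higher and 1 lower. Their median was 0.21, and -0.57 among those with a mean of at least 50 CPM. Vegfa, the main growth factor of vessels, was the lower one, at 156 CPM in CGRP cells and 297 CPM in zoledronate cells, and was found in 47.4% of CGRP cells (46.4 to 48.4) and 71.8% of zoledronate cells (70.9 to 72.7). Fgf7, a growth factor for epithelia, was at 13.3 CPM in CGRP cells and 1.91 CPM in zoledronate cells, Angpt4, a ligand of Tie2, at 10.1 CPM in CGRP cells and 3.21 CPM in zoledronate cells, and the VEGF co-receptor Nrp2 at 8.84 CPM in CGRP cells and 2.80 CPM in zoledronate cells. Hypoxia and glycolysis genes had 1 of 19 higher, Ndrg1 at 17.3 CPM in CGRP cells and 5.73 CPM in zoledronate cells, and 1 lower, Vegfa. Their median (-0.008) changed side with the scaling. The mitophagy gene Bnip3 was at 281 CPM in CGRP cells and 418 CPM in zoledronate cells, and the pyruvate kinase Pkm at 91.6 CPM in CGRP cells and 119 CPM in zoledronate cells. Among 10 genes of secreted factors that act on nerves, proenkephalin (Penk), an opioid precursor, was the 1 at least 1.5-fold higher, at 33.97 CPM in CGRP cells and 17.1 CPM in zoledronate cells. Slit3 was at 111 CPM in CGRP cells and 75.98 CPM in zoledronate cells and Sema3c at 147 CPM in CGRP cells and 209 CPM in zoledronate cells, both guidance cues.

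Contractile genes, which mark smooth muscle and myofibroblasts, were lower in the CGRP library. Of 14 measured, 4 were at least 1.5-fold lower, 2 higher and 11 lower at any size (49.1% of all genes), with a median of -0.53. Tagln (transgelin) was at 7272 CPM in CGRP cells and 13472 CPM in zoledronate cells, and Acta2 at 2319 CPM in CGRP cells and 4207 CPM in zoledronate cells. Tropomyosin 2 (Tpm2) was at 2896 CPM in CGRP cells and 5338 CPM in zoledronate cells. The median cell held 79 contractile UMIs of 5000 in the CGRP library and 138 in the zoledronate library. On the other side Mylk, the kinase of myosin light chains, was at 64.4 CPM in CGRP cells and 6.10 CPM in zoledronate cells, and smoothelin (Smtn) at 75.1 CPM in CGRP cells and 45.3 CPM in zoledronate cells. The smooth muscle and pericyte markers moved with this list, and they share Acta2, Cnn1 and Myh11 with it. Of the pericyte markers, Rgs5 was listed in neither library, Kcnj8 was at 0.0884 CPM in CGRP cells and 0.0385 CPM in zoledronate cells, and Cspg4 was at 7.27 CPM in CGRP cells and 15.02 CPM in zoledronate cells. The part of a different mix of cells in this result was not tested.

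Among antioxidant and detoxification genes, 6 of 25 were at least 1.5-fold higher (24%, against 5.63% of all genes) and 1 lower (4%, against 5.13%). The metallothioneins, which bind zinc, copper and cadmium, lay furthest above zoledronate. Mt2A was at 98.5 CPM in CGRP cells and 23.7 CPM in zoledronate cells and Mt1 at 162 CPM in CGRP cells and 54.99 CPM in zoledronate cells, with 105 and 186 CPM in the magnesium library and 50.6 and 80.98 CPM in the control library. The plasma glutathione peroxidase Gpx3 was at 740.3 CPM in CGRP cells and 327 CPM in zoledronate cells. Sod2, the mitochondrial superoxide dismutase, was the lower one, at 173 CPM in CGRP cells and 281 CPM in zoledronate cells.

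Both metallothionein promoters are printed because both genes were higher and are known to be switched on through metal response elements (MREs), bound by the zinc sensor Mtf1. MREs were searched as TGCACNC or TGCGCNC on both strands and stand in capitals. The Mt1 promoter, at chr19:10832926-10833225 (- strand) of GRCr8, held 6, and the Mt2A promoter, at chr19:10838659-10838958 (- strand), held 4. Of all promoters, 25% held at least 1 and 0.455% at least 4.
Mt1: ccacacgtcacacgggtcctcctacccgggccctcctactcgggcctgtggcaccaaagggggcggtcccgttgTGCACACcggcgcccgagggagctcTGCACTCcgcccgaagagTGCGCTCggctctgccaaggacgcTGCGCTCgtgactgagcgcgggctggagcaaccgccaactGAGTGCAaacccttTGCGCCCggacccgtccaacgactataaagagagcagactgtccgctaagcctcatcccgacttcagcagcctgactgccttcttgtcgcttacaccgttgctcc
Mt2A: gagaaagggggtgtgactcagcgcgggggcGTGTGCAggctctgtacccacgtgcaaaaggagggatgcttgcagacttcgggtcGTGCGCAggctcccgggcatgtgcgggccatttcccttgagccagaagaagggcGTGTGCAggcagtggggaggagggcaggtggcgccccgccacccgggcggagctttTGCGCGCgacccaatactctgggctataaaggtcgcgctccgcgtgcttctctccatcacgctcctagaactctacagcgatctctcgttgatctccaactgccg

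Interferon and heat shock lists had few members past 1.5-fold. Of 4 interferon response genes 0 were past 1.5-fold higher and 0 lower, with Ifi27 at 541 CPM in CGRP cells and 533 CPM in zoledronate cells. Ifitm3 was not on that list. Of 7 antigen presentation genes 1 was higher, the class I gene RT1-A1, at 37.98 CPM in CGRP cells and 0.968 CPM in zoledronate cells. RT1-A2, a close copy, was at 46.1 CPM in CGRP cells and 66.4 CPM in zoledronate cells, and B2m, the shared light chain, at 1041 CPM in CGRP cells and 1253 CPM in zoledronate cells. Class I genes are near-identical and can share reads, so these levels are uncertain. Heat shock genes had 1 of 13 higher, Hspa1a at 41.1 CPM in CGRP cells and 25.7 CPM in zoledronate cells, and 0 lower. Genes of the unfolded protein and amino acid response had 0 of 18 higher and 1 lower, the glutathione-degrading enzyme Chac1, at 44.2 CPM in CGRP cells and 71.6 CPM in zoledronate cells.

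Markers of skeletal stem and mesenchymal cells, not all of them surface proteins, had 4 of 14 higher and 2 lower, with a median of 0.42. Prrx1, a transcription factor of limb mesenchyme, was at 79.1 CPM in CGRP cells and 40.1 CPM in zoledronate cells. Thy1 (CD90) was at 71.5 CPM in CGRP cells and 42.4 CPM in zoledronate cells. Ly6e was at 42.7 CPM in CGRP cells and 24.8 CPM in zoledronate cells. Mcam (CD146), found on pericytes, was at 4.79 CPM in CGRP cells and 11.3 CPM in zoledronate cells, on the same side as Cd200.

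The pair of libraries taken at week 4 shares no library with that of week 12 and holds the same contrast at an earlier stage. At week 4, 320 of 7158 genes were at least 1.5-fold higher in the CGRP library (4.47%) and 385 lower (5.38%). Of 6927 genes measured at both weeks, 130 were at least 1.5-fold higher at both, which is 36.5% of the 356 at week 12 and 52% of the 250 at week 4. At least 1.5-fold lower at both were 105, which is 31.7% of the 331 at week 12 and 27.5% of the 382 at week 4. On opposite sides by 1.5-fold were 40 of the 356 genes higher at week 12 and 14 of the 331 lower at week 12. For comparison, 382 of all 6927 genes were lower and 250 higher at week 4.

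Mitosis genes lay on the higher side in both pairs. The list's median was 1.16 for the week 4 pair and 1.33 for the week 12 pair. Ramp3 was at 59.6 CPM in CGRP cells and 17.7 CPM in zoledronate cells of week 4, so its log2 ratio was 1.70 there and 1.53 in the later pair. For contractile genes week 4 gave a median of -0.73 and week 12 one of -0.53. For collagens the medians were -0.70 and 0.015 in the same order of weeks, and for Col3a1 the log2 ratios were -1.20 and -0.13. Regulators of osteoclasts stood at a median of -0.077 in the early pair and 0.82 in the late pair, and mevalonate genes at 0.11 and 0.45. With 1 library at each point, these differences between the weeks were not tested.

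**Figure D4:**
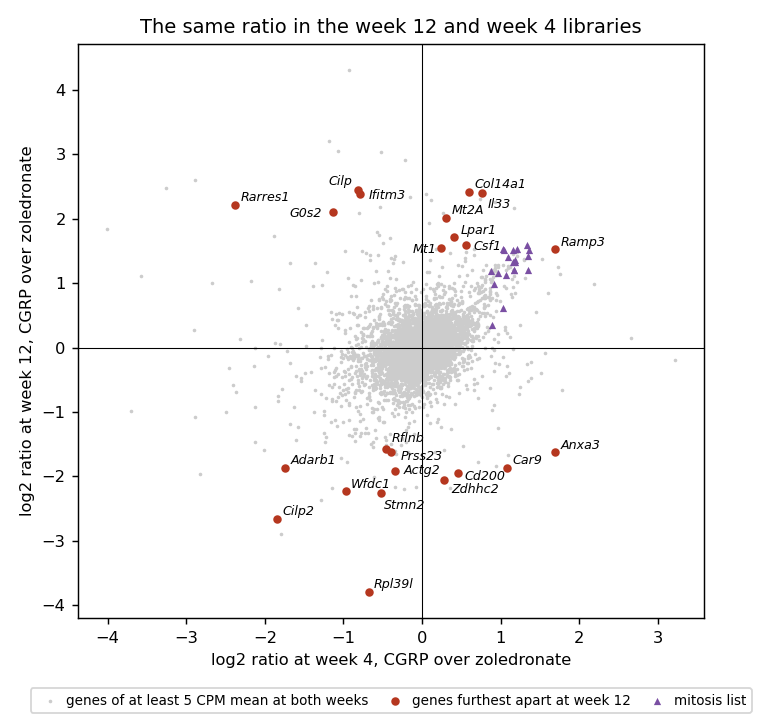
Log2 ratio of CPM + 1, CGRP over zoledronate, at week 4 (x axis) and week 12 (y axis), for every gene with a mean of at least 5 CPM at both weeks. Of the 12 higher genes at week 12, Rarres1, Cilp, Ifitm3 and G0s2 lie on the lower side at week 4, Wfdc18 is not drawn because it was below 5 CPM at week 4, and the mitosis genes (triangles) lie on the higher side at both weeks.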

How the data were processed

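Single-cell RNA libraries of 8 groups of rat fracture callus cells were used, chiefly the CGRP and zoledronate libraries of week 12. The authors deposited raw UMI counts per gene and barcode, 1 table a library. The reads were aligned with STAR to Rnor_6.0, per the submitters' processing notes; the sources used here give neither annotation nor cell calling. Each gene listed was present in 5 or more barcodes of its table and 0 mitochondrial genes were listed, so unlisted genes may hold a few counts.

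Barcodes with at least 5000 UMIs were kept. Counts were summed per gene and library and scaled to CPM (a total of 1000000 a library). Log2 ratios used a pseudocount of 1 CPM, and genes were called at 1.5-fold with a mean of at least 5 CPM. Shares of cells with a UMI were taken after thinning each barcode to 5000 UMIs. No cell type that should lack the named genes was at hand as a background for free RNA. Doublets were not called and were treated as still present.

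Named genes were the 12 furthest on each side with a mean of at least 50 CPM, the 3 highest listed in only 1 table, the 5 largest gains and losses in cells, up to 4 furthest members of each of 38 gene lists, and further list members named for their role after their values were seen. Values of a few list members are not reported here. The members and lists were chosen with earlier results of these data known. With 1 library a side, reported differences have no replicate check. The script for ratios was tested on simulated data.

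Alternatives used the scalings of edgeR 4.0.16 (TMM) and DESeq2 1.42.0 (size factors only) in R 4.3.3, other pseudocounts, level minimums and barcode filters. Python 3.11.15, numpy 2.4.6, scipy 1.17.1 and pandas 2.3.3 did the rest. Promoters came from RefSeq (GRCr8), another assembly than that of the files, so no coordinates were carried over.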

Additional observations from a re-analysis of the deposited data

Results flagged for a closer look

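Of the 112 named genes at least 1.5-fold apart at week 12, 16 lay at least 1.5-fold on the other side at week 4. Many named genes were picked for their week 12 ratios. Among all genes measured at both weeks, 40 of 356 higher and 14 of 331 lower at week 12 lay on opposite sides. With 1 library for each treatment and week, these differences between weeks were not tested. Log2 ratios are given for week 12 and then week 4, CGRP over zoledronate.

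Of the 12 genes furthest above zoledronate at week 12, 4 were among them. Cilp was at 2.44 and -0.82, Ifitm3 at 2.38 and -0.79, Rarres1 at 2.21 and -2.38, and G0s2 at 2.11 and -1.13. Of the 12 furthest below, Car9 was at -1.87 and 1.08 and Anxa3 at -1.63 and 1.69.

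Matrix genes also lay on opposite sides in the 2 weeks. Asporin (Aspn) was at 2.61 and -2.89, Tgfbi at 3.05 and -1.07, and the link protein Hapln1 at -0.67 and 1.78. Among secreted growth regulators, Igf1 was at 1.30 and -1.69, Igfbp4 at -0.89 and 0.92, Wnt4 at 2.09 and -0.81, and Grem1 at 0.96 and -1.27. Mylk was at 3.20 and -1.19, Gpx3 at 1.18 and -1.21, and RT1-A1, whose reads may be shared with other class I genes, at 4.31 and -0.93.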

How the results depend on the processing

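Of 156 named genes with a ratio, 112 were at least 1.5-fold apart, and 97 of these stayed so in the same direction under each of 11 alternatives, with 0 on the other side of 0 under any. Of 37 lists with a median, 5 were past 1.5-fold (mitosis, osteoclast regulators, chemokines, insulin-like growth factors and bone). Only the osteoclast regulators stayed past it under each of 13 alternatives, from 0.62 to 0.91, and 15 medians changed side under at least 1. The mitosis median ran from 0.44, without cells that held 5 or more mitosis and S phase UMIs, to 1.51. The lower value comes from leaving out cells by the same genes. The counts of 400 higher and 365 lower genes were 91 and 130 with a mean of at least 50 CPM, and 701 and 518 with no minimum level. The share of called genes that were higher was 52.3%, against 48.4% with TMM factors, 48.6% with DESeq2 size factors, 41.2% at 50 CPM, 44.7% without cells in cycle and 60.5% when scaled to UMIs outside ribosomal protein genes. The last 2 were chosen after seeing the data. Scalings moved the median of all genes by less than 0.1. The difference in cells with a transcript, CGRP minus zoledronate, was on the other side without thinning for Hsp90aa1 (-0.20 percentage points), Ctsh (-2.05) and Psmd1 (-2.72). No paired analysis was possible because each group is 1 library. Depth limits genes near 1 CPM, where the pseudocount of 1 CPM makes ratios smaller than those of the counts.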

Other observations

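Cytosolic ribosomal protein genes were slightly higher in the CGRP library as a group. Of 80 measured, 71 were higher at any size, against 50.9% of all genes. At least 1.5-fold, 5 were higher (6.25%, against 5.63% of all genes) and 2 lower, with a median of 0.23. The median cell held 1321 ribosomal UMIs of 5000 in the CGRP library and 1153 in the zoledronate library. Rps4y2 was at 70.03 CPM in CGRP cells and 8.48 CPM in zoledronate cells, Rps20 at 835 CPM in CGRP cells and 417 CPM in zoledronate cells and Rpl17 at 1299.9 CPM in CGRP cells and 776 CPM in zoledronate cells. These genes have near-identical copies, and their single levels are uncertain. Nuclear genes of oxidative phosphorylation had 0 of 70 past 1.5-fold higher and 3 lower, with a median of -0.10. The lower ones were Cox6a2, a muscle form of a cytochrome oxidase subunit, at 105 CPM in CGRP cells and 265 CPM in zoledronate cells, Uqcr10 at 137 CPM in CGRP cells and 255 CPM in zoledronate cells and Ndufa8 at 45.9 CPM in CGRP cells and 79.4 CPM in zoledronate cells. Of 34 proteasome genes 0 were past 1.5-fold higher and 0 lower, with Psma2 at 121 CPM in CGRP cells and 173 CPM in zoledronate cells.

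Of 6 limb position genes measured 0 were higher and 2 lower, namely Hoxd13 at 2.14 CPM in CGRP cells and 8.91 CPM in zoledronate cells and Hoxd9 at 4.04 CPM in CGRP cells and 12.2 CPM in zoledronate cells. Their median, -0.037, changed side with the scaling, and Pitx1, which marks the hindlimb, was at 21.7 CPM in CGRP cells and 22.01 CPM in zoledronate cells. Of 6 sex-linked genes 0 were listed in either table. Of the genes listed in only 1 of the tables, 354 were in the CGRP table and 209 in the zoledronate table. The highest in the CGRP table were Lgals9 at 1.20 CPM, RGD1564380 at 0.625 CPM and Cpne7 at 0.619 CPM. In the zoledronate table they were Lhx8 at 0.635 CPM, Nlgn1 at 0.295 CPM and Sidt1 at 0.263 CPM. Genes with fewer than 5 cells were not listed, so no ratio is given for them.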
